A study of Mus musculus with 94 samples.

Results

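Macrophage segments of the mouse kidney on day 14 after ischemia-reperfusion injury (IRI) were compared with macrophage segments of uninjured control kidneys. All segments labeled IBA1 in the control group and in the vehicle group of day 14 were taken, which gave 14 of the 94 segments of the series and 14 of its 46 macrophage segments. The control group had 4 segments in the cortex and 2 in the medulla, and the day 14 group had 4 in each region. The mice were male C57BL/6 with no engineered allele named, and their age is not stated in the labels. The injured kidneys came from mice that received vehicle (DMSO by the methods of the study) and unilateral clamping of the renal pedicle, with no removal of the other kidney. The controls were uninjured kidneys, which the labels call contralateral and the methods call contralateral or from healthy mice, so a control may share its mouse with an injured kidney. Each group came from 2 sections, told apart by the prefix of the sample titles, and the design text gives 2 mice per condition and time point. Sections served as replicates (n = 2 per group), and p-values measure the spread between sections of a group, estimated together over all 7 groups of the series.

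Macrophages of the kidney are resident cells that survey the tubules and monocyte-derived cells that enter after injury. After ischemia they take up debris of dying tubular cells, release inflammatory mediators, and later can promote either repair of the epithelium or scarring of the interstitium. IBA1 is a calcium-binding protein of macrophages. For digital spatial profiling, the section was stained for IBA1 and for the tubular markers panCK and CD10, and each region of interest (ROI) was divided by these stains into a macrophage segment and a tubule segment. Barcodes of the hybridized probes were released by UV light from each segment and counted. The 20175 probes carry identifiers only, with no gene assigned to them in the files, so results are given for probes, and genes, pathways, marker genes, and sequences of probes could not be named. RNA of cells that overlap a stained area is collected with it, and in such a bulk sample fewer cells of a type and less RNA per cell cannot be told apart.

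Day 14 macrophage segments held many more counts than control segments. The total of unique molecular identifiers (UMIs) was 26729 and 16693 in the 2 cortical segments of control section 1 and 120821 and 31069 in those of control section 2. The control medullary segments held 116031 counts in section 1 and 146173 in section 2. On day 14, the cortical segments held 947255 and 671178 counts in section 1 and 437694 and 378678 in section 2. The day 14 medullary segments held 574751 and 580272 counts in section 1 and 646082 and 561802 in section 2. The 2 groups did not overlap, and the smallest day 14 total was above the largest control total in either region. The control segments detected between 8231 and 19351 of the 20175 probes and the day 14 segments between 19788 and 20175. A probe with any count was taken as detected, so background counts are included and detection does not show expression. The study used a limit of quantification from negative probes, which could not be identified here. It also left out low-signal segments and 2 outliers, and no segment was left out here. When every segment was thinned to 16693 counts, the total of the smallest, the control segments detected 8000 to 9065 probes (median 8324) and the day 14 segments 7140 to 8412 (median 8032), so the ranges overlapped at equal depth. Sequencing saturation was 74.1% to 77.6% in control and 74.5% to 79.3% in day 14 segments. All segments were on 1 plate and in 1 sequencing set by the file headers. The area and number of cells of a segment were not used here, and the difference in depth cannot be told apart from the groups.

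**Figure D1:**
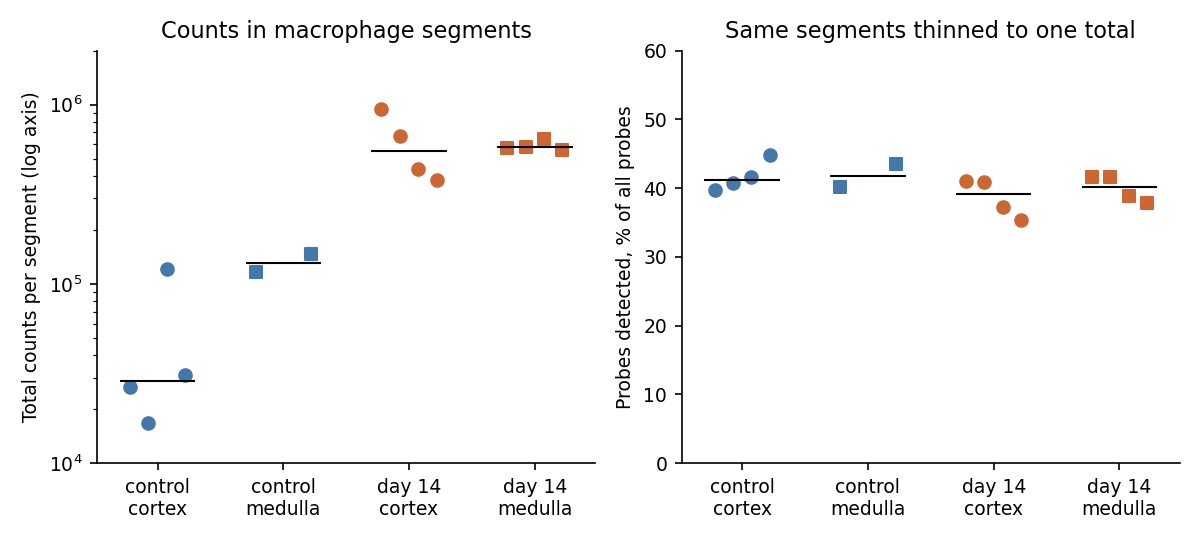
Total counts (left, log axis) and the share of the 20175 probes detected after thinning each segment to 16693 counts (right), for the control (blue) and day 14 (orange) macrophage segments of cortex (circles) and medulla (squares). Each point is a segment and each line a median. The totals of the 2 groups do not overlap, whereas the thinned shares do.

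To describe the segments without gene names, probes that leaned to a compartment were taken from the other groups of the series. These were the 5 groups, with 10 sections, other than the control and the day 14 vehicle group. All 5 groups were of injured kidneys, with vehicle or entospletinib, and no uninjured section contributed. Probes that lean to a compartment only after injury can therefore be in the lists, and their part in the results below was not tested. In these sections, 395 probes were higher in the macrophage than in the tubule segments (macrophage-leaning), and 107 were higher in the tubule segments (tubule-leaning). The same lists told macrophage from tubule segments within each ROI of the control and day 14 kidneys. In each of the 14 ROIs, the macrophage-leaning share of counts was higher in the macrophage than in the tubule segment, and the tubule-leaning share was higher in the tubule segment. Within each of the 14 ROIs the shares thus followed the labels, although defining markers of macrophages could not be looked up. Across ROIs day 14 tubule segments overlapped with control macrophage segments. The macrophage-leaning share ran from 2.21% to 6.59% in the former and from 2.93% to 5.02% in the latter. The tubule-leaning share ran from 0.499% to 3.58% and from 1.32% to 4.64%. The lists themselves were defined by these labels in the other groups.

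Macrophage-leaning probes took up a larger share of the counts on day 14, and tubule-leaning probes a smaller one. The macrophage-leaning share was 3.59%, 3.92%, and 4.38% in the segments of control section 1, the last of these in the medulla, and 2.93%, 5.02%, and 4.51% in those of section 2, again with the medulla last. On day 14 it was 10.9% and 9.7% in the cortex and 11.7% and 12% in the medulla of section 1, and 13.2% and 13.9% in the cortex and 13.2% and 13.8% in the medulla of section 2. The lowest day 14 segment was above the highest control segment. Summed by section, the share was 12.3% ± 1.78 (SD, n = 2 sections) on day 14 and 4.06% ± 0.195 in controls. The tubule-leaning share ran from 1.32% to 4.64% over the 6 control segments (median 2.36%) and from 0.232% to 0.94% over the 8 day 14 segments (median 0.519%), again without overlap. By section it was 0.547% ± 0.148 (SD, n = 2 sections) on day 14 and 2.98% ± 1.51 in controls. With 2 sections against 2, an exact permutation test cannot give a two-sided p below 0.333, which both shares had.

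**Figure D2:**
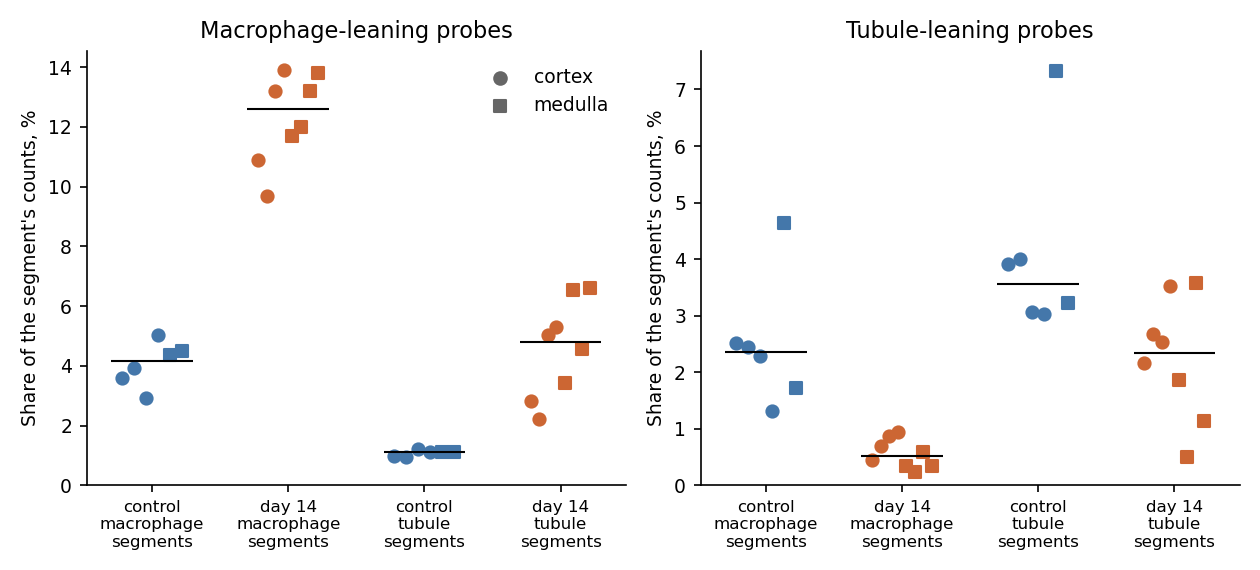
Share of each segment's counts in the 395 macrophage-leaning (left) and the 107 tubule-leaning probes (right), for control (blue) and day 14 (orange) kidneys, in macrophage and tubule segments of cortex (circles) and medulla (squares), with a line at each median. In the macrophage segments the day 14 points lie from 9.7% to 13.9% on the left and from 0.232% to 0.94% on the right, apart from the control points.

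The tubule segments of the same ROIs moved in the same direction as the macrophage segments. The macrophage-leaning share of the tubule segments ran from 0.954% to 1.22% in controls and from 2.21% to 6.59% on day 14. Their tubule-leaning share ran from 3.03% to 7.33% in controls and from 0.499% to 3.58% on day 14, and these ranges overlapped. Within an ROI, the tubule-leaning share of the macrophage segment was 0.436 to 0.748 times that of the tubule segment in controls (median 0.621) and 0.164 to 0.465 times on day 14 (median 0.265). Control macrophage segments were thus closer to their tubule segments on this list than day 14 segments were, except that the highest day 14 ratio, in the medulla of section 1, was above the lowest control ratio, in the cortex of section 2. The ratio of the macrophage-leaning share, tubule to macrophage segment, was 0.221 to 0.416 in controls and 0.228 to 0.546 on day 14, with overlap. How much of a segment's counts came from neighboring cells was not tested.

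Probe by probe, 1287 of 20175 probes differed between day 14 and control when all regions of a section were summed (6.38%), with 591 higher (2.93%) and 696 lower (3.45%). Calls needed an adjusted p under 0.05 in edgeR's quasi-likelihood test together with an absolute log2 fold change above 1, that is, more than a 2-fold change. Over all probes the median log2 fold change stood at -0.12. The median of the 591 higher probes was 1.61 on the log2 scale, and 159 of them were above 2 and 26 above 3. Among those with more than 3 counts over the 6 control segments, the highest log2 fold change was 4.64. The 696 lower probes had a median of -1.52, with 134 below -2 and 20 below -3, and the lowest was -4.62. Summed over the 6 control segments, the higher probes had a median of 18 counts and the lower probes 53. Of the higher probes, 1 had 0 counts in all control segments, and 24 had 1 to 3. For 337 of the 591 higher probes, every day 14 segment had a higher CPM, the count scaled by the total of its segment, than every control segment, which was so for 547 of all 20175 probes (2.71%). For 244 of the 696 lower probes every day 14 segment was below every control segment, against 316 of all probes (1.57%).

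The number of calls rested on single sections. It was 633 without control section 1, 727 without control section 2, 1138 without day 14 section 1, and 789 without day 14 section 2. Without the 3 control segments of fewer than 50000 counts it was 1135, 1064 of them among the 1287. When only the 4 sections were fitted, each thinned to 159453 counts, 8547 probes were testable, and the 831 calls, of which 702 belonged to the 1287, came as 368 higher and 463 lower. Which direction held more calls depended on the setting, with 662 higher and 617 lower under TMM, 658 and 629 with filterByExpr, and 844 and 667 with DESeq2 over regions.

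The 2 lists lay on opposite sides of the comparison. Of the 395 macrophage-leaning probes, 225 were called higher and 1 lower, and 383 had a positive log2 fold change (97%, beside 42.7% of all probes). Their median log2 fold change was 1.43, beside -0.12 for all probes, with quartiles of 0.91 and 2.00. Of the 107 tubule-leaning probes, 63 were called lower and 0 higher by edgeR, and 3 had a positive log2 fold change (2.8%). Their median was -2.08, with quartiles of -2.76 and -1.58. Among the 19673 probes in neither list, 366 were called higher and 632 lower, and the median was -0.13. Macrophage-leaning probes were 38.1% of the higher calls and 1.96% of all probes, and tubule-leaning probes were 9.05% of the lower calls and 0.53% of all probes. At the equal depth of 159453 counts, the medians were 1.5 for the macrophage-leaning and -2.32 for the tubule-leaning probes. Without control section 2 the medians were 1.93 and -2.58, and without control section 1 they were 1.31 and -1.58. The macrophage-leaning probes called higher numbered 122 without control section 1, 155 without control section 2, 216 without day 14 section 1, and 158 without day 14 section 2. The tubule-leaning share was higher in the control than in the day 14 macrophage segments, and the part of tubular RNA in these results was not tested.

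In cortical segments alone, 727 probes were called (3.6%), 332 higher (1.65%) and 395 lower (1.96%). The cortical sums of the control sections held 43422 and 151890 counts, against 1618433 and 816372 on day 14. The split depended on the scaling. With TMM in place of the upper quartile, the median over all probes moved from -0.12 to 0.16 on the log2 scale, and 584 probes were called higher and 211 lower. DESeq2 on the same sums called 310 higher and 240 lower. The number was 317 without control section 1, 130 without control section 2, 733 without day 14 section 1, and 480 without day 14 section 2, and it was 361 without the 3 control segments of fewer than 50000 counts. Of the macrophage-leaning probes 150 were called higher and 1 lower in the cortex, at a median log2 fold change of 1.504, and of the tubule-leaning probes 48 were called lower and 0 higher, with a median of -1.55.

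In medullary segments alone, 903 probes were called (4.48%), 372 higher (1.84%) and 531 lower (2.63%). This split also depended on the setting. TMM called 436 higher and 458 lower, and filterByExpr, with 9439 probes tested, 472 and 446. DESeq2 on the same sums called 219 higher and 413 lower. The medullary sums held 116031 and 146173 counts in controls, each from 1 segment, and 1155023 and 1207884 on day 14. The number was 368 without control section 1, 701 without control section 2, 607 without day 14 section 1, and 547 without day 14 section 2. Of the macrophage-leaning probes 175 were called higher and 2 lower in the medulla, with a median log2 fold change of 1.37 beside -0.06 for all probes. Of the tubule-leaning probes 50 were called lower and 0 higher, with a median of -2.66. The tubule-leaning median was thus lower in the medulla than in the cortex, and the macrophage-leaning medians were close. The difference of the medians between the regions was not tested.

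Cortex and medulla shared many of their calls. Both regions called 165 probes higher, which is 49.7% of the cortical and 44.4% of the medullary higher calls, and 234 lower, which is 59.2% and 44.1%. No probe called in one region was called in the opposite direction in the other. Of the 167 probes called higher in the cortex alone, 157 had a positive fold change in the medulla. Of the 297 called lower in the medulla alone, 273 had a negative one in the cortex. Over all probes the median log2 fold change was -0.059 in the medulla and -0.125 in the cortex. The regions come from the same sections, so they are not independent.

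**Figure D3:**
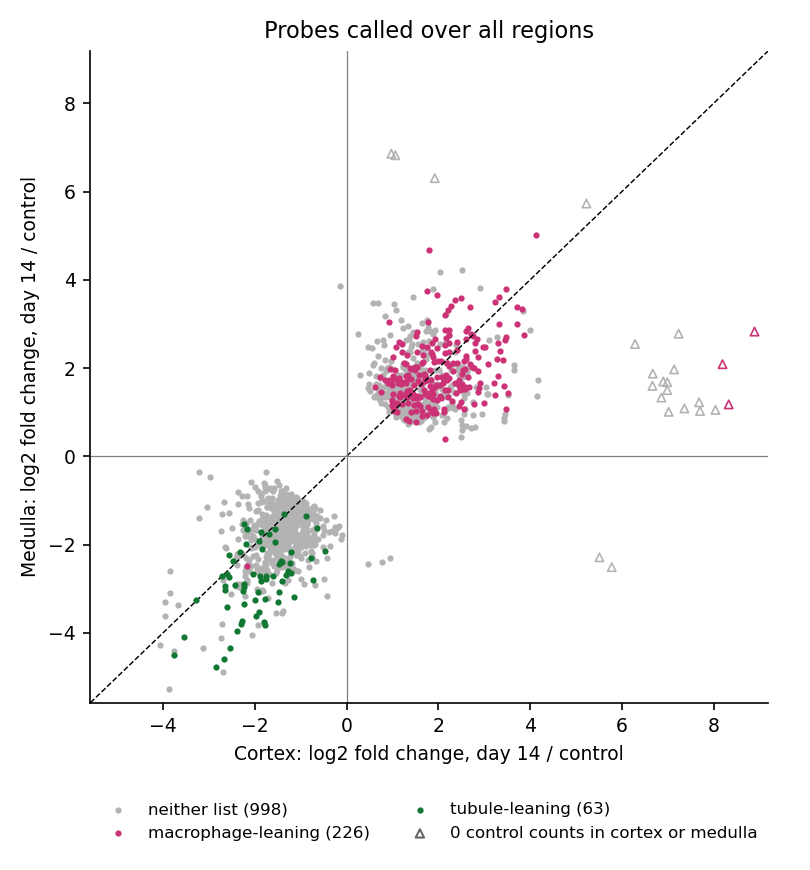
Log2 fold change of day 14 against control in cortex (x axis) and medulla (y axis) for the 1287 probes called over all regions, with macrophage-leaning probes in magenta, tubule-leaning probes in green, and the others in gray. Triangles are 23 probes with 0 control counts in a region, whose fitted fold change there depends on the prior count. The probes were called on the sum of both regions, which ties the signs of the 2 axes.

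A different extent of change in the 2 regions was shown for few probes. In a fit that held cortex and medulla of each section together, the day 14 effect in the medulla was tested against that in the cortex, and an adjusted p under 0.05 was reached by 6 probes (0.0297% of 20175), while 960 had an unadjusted p under 0.05. For 5 of the 6, the log2 fold change was lower in the medulla, with differences from -3.52 to -1.75. These 5 were called lower in the medulla, with log2 fold changes from -4.89 to -2.40, and 4 of them also in the cortex. The remaining probe had a log2 fold change of 0.77 in the cortex and was not called there. The sixth rose in the medulla, with a log2 fold change of 2.77, and had 0.24 in the cortex. With TMM the number was 10, all lower in the medulla. It was 1 without control section 1, 14 without control section 2, 2 without day 14 section 1, and 3 without day 14 section 2.

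The probes described segment by segment were the 2 rising and the 2 falling probes with the smallest adjusted p among those called in the same direction over all regions, in the cortex, and in the medulla. Only probes with a mean of 20 or more counts over the 14 segments were considered, and 162 rising and 156 falling probes met these conditions. Each of the 4 stayed called, with its direction, in all 15 alternatives for the fit over all regions. The alternatives refit the counts by which these probes were picked, so they are no independent support.

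Probe RTS0070408 had few counts in the shallow control macrophage segments and rose in both regions. Its counts were 2, 0, and 3 in control section 1 and 3, 0, and 3 in control section 2, with the medullary segment last. In the 3 control segments where it had 3 counts, the median over all probes was 3 or 4 counts. On day 14 it had 412 and 239 counts in the cortex and 340 and 457 in the medulla of section 1, and 197 and 216 in the cortex and 578 and 398 in the medulla of section 2. Every day 14 segment, from 356.1 to 894.6 CPM, was above every control segment, of which the highest was 74.8 CPM from 2 counts in a segment of 26729. The level was 604 ± 116 CPM on day 14 and 25.7 ± 7.94 in controls (SD, n = 2 sections). Its log2 fold change was 4.64 (standard error, SE, 0.42, edgeR adjusted p = 1.27e-10), with 4.13 in the cortex and 5.01 in the medulla. Pooled over segments, the ratio was 24.6, with a 95% interval from 13.7 to 49.3 that covers counting error only.

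Probe RTS0081452 rose in both regions, to higher levels in the medulla. It had between 0 and 7 counts in the control segments, 15 in all. On day 14 it had 257 and 56 counts in the cortex of section 1 and 21 and 43 in that of section 2, which is 48 to 271.3 CPM. The medullary segments had 359 and 542 counts in section 1 and 376 and 382 in section 2, which is 582 to 934 CPM. All 4 medullary segments were above all 4 cortical segments on day 14, and the lowest cortical segment, at 48 CPM, lay within the control range of 0 to 59.9 CPM. The log2 fold change was 3.68 over all regions (SE 0.35, edgeR adjusted p = 2.88e-10), 1.79 in the cortex, and 4.68 in the medulla. The difference between the regions was 3.14 (SE 0.84) and did not pass the test across all probes (edgeR adjusted p = 0.227). Both rising probes were macrophage-leaning in the other groups.

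Probe RTS0073753 fell in every segment of day 14. It had 524 and 539 CPM in the cortical segments of control section 1 and 621 and 290 CPM in those of section 2, and 672 and 294 CPM in the control medulla. On day 14 it had 66.5 and 107 CPM in the cortex of section 1 and 93.7 and 66 CPM in that of section 2, and 28.5 to 45.2 CPM in the medulla. The groups did not overlap. The log2 fold change was -3.18 (SE 0.32, edgeR adjusted p = 1.38e-09), with -2.71 in the cortex and -3.80 in the medulla. This probe was in neither list.

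Probe RTS0066546, a tubule-leaning probe, fell further in the medulla than in the cortex. Control levels were alike in the regions, at 659 to 1076 CPM in the 4 cortical and 684 and 922 CPM in the 2 medullary segments. On day 14 the cortical segments had 125 to 252 CPM and the medullary segments 22.4 to 52.6 CPM, without overlap between the regions. The log2 fold change was -3.13 over all regions (SE 0.33, edgeR adjusted p = 7.92e-09), -2.54 in the cortex, and -4.36 in the medulla. It was 1 of the 6 probes that differed between the regions, with a difference of -1.77 (SE 0.38, edgeR adjusted p = 0.0101). The difference kept its sign in all 7 alternatives, from -2.22 to -1.41, but did not pass with filterByExpr (adjusted p = 0.131) or without control section 1 (0.86), day 14 section 1 (0.698), or day 14 section 2 (0.12), all by edgeR.

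**Figure D4:**
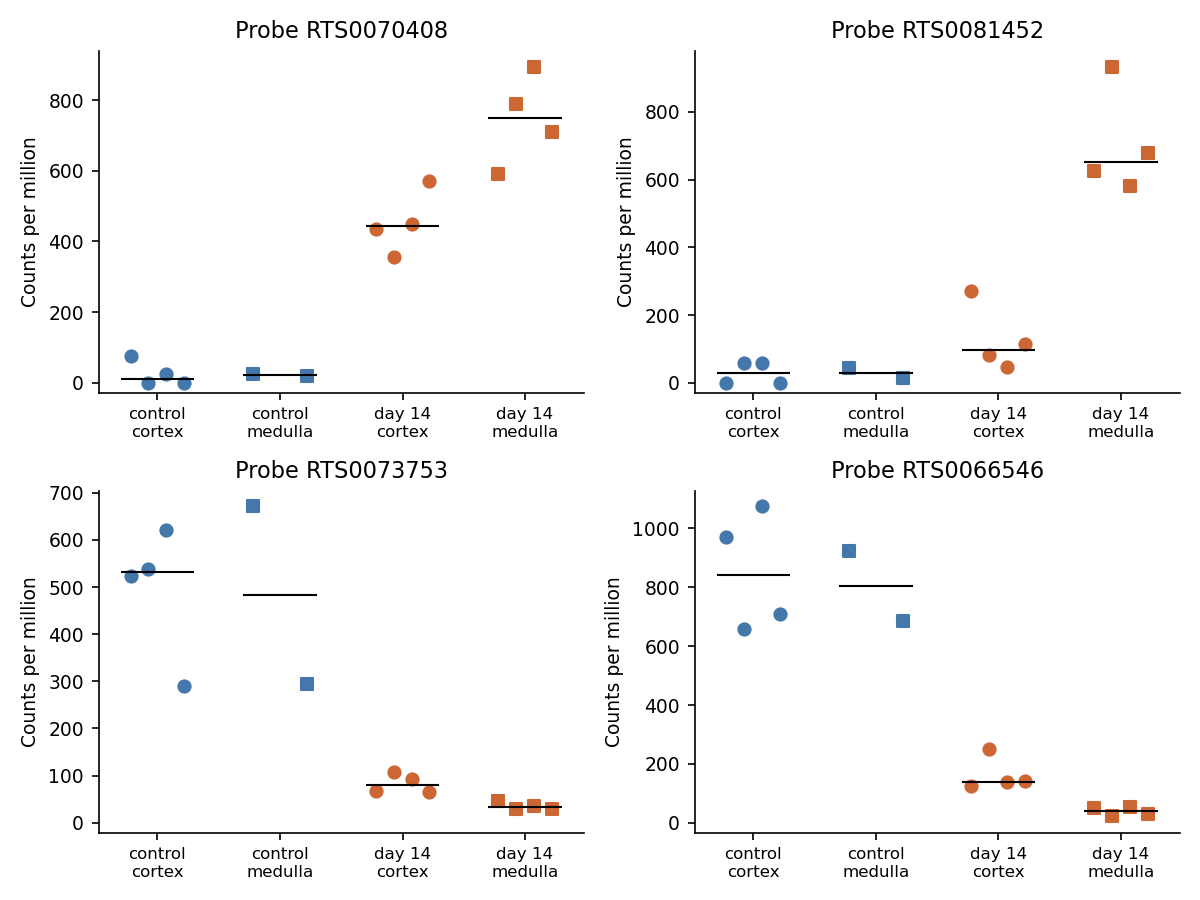
Level (CPM) of the 4 probes in each control (blue) and day 14 (orange) macrophage segment of cortex (circles) and medulla (squares), with a line at each median. The upper probes have at most 74.8 CPM in controls and rise on day 14, RTS0081452 to 582 CPM or more in the medulla and 271.3 or less in the cortex. The lower probes fall in every day 14 segment.

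The tubule segments of the same kidneys changed in a similar direction. Between day 14 and control tubule segments, 712 probes rose (3.53%) and 557 fell (2.76%), with -0.30 as the median log2 fold change over all probes. TMM gave 1054 higher and 292 lower, the number was 2988 without day 14 section 1, with 858 higher and 2130 lower, and it was 681 without day 14 section 2, with 553 higher and 128 lower. Of the 591 probes called higher in macrophage segments, 344 were also called higher in tubule segments, which is 58.2% of the macrophage and 48.3% of the tubule list. Of the 696 called lower, 395 were also called lower in tubules, which is 56.8% and 70.9%. No probe was called in opposite directions. The macrophage and tubule segments share their ROIs and sections, and light or overlapping cells at their borders were not measured. The 4 named probes had tubule log2 fold changes of 3.099, 3.73, -2.31, and -1.73, in the order described above, all called there in the direction of the macrophage segments.

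A model with both compartments of each section tested whether the day 14 effect differed between macrophage and tubule segments. It called 36 probes (0.178% of 20175), and 1695 had an unadjusted p under 0.05. For 10 the log2 fold change was higher in macrophage segments, by 1.41 to 3.91, and 9 of these were called higher in macrophage and 5 in tubule segments. Of the 10, 5 were macrophage-leaning and 0 tubule-leaning, beside 1.96% and 0.53% of all probes. For the other 26 it was lower in macrophage segments, with differences from -2.44 to -1.23, and with 11 called higher in tubules and 6 called lower in macrophage segments. Of these 26, 4 were macrophage-leaning and 2 tubule-leaning. With TMM, 8 were higher and 61 lower. The number was 3 without control section 1, 10 without control section 2, 58 without day 14 section 1, and 8 without day 14 section 2. Probe RTS0066546 was among the 26, with a difference of -1.37 (SE 0.31, edgeR adjusted p = 0.038). Without any 1 of the 4 sections this difference lay between -1.60 and -1.12 and did not pass, with adjusted p from 0.148 to 0.375 by edgeR.

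Day 14 was also set beside the earlier days of the vehicle group. Between day 14 and day 7 macrophage sums, 36 probes passed (0.178%), 32 with more and 4 with less on day 14, and 999 had an unadjusted p under 0.05. The number was 9 without day 7 section 1, 10 without day 7 section 2, 32 without day 14 section 1, and 16 without day 14 section 2, and DESeq2 on the same sums called 8, all higher. The median log2 difference was 1.25 for the 32 and -1.08 for the 4. Of the 32, 3 were macrophage-leaning and 0 tubule-leaning, beside 1.96% and 0.53% of all probes, and none of the 4 was in either list. The day 7 sections were among those that gave the lists. Probe RTS0081452 was among the 32, at 422 ± 22.4 CPM on day 14, 88.4 ± 10.4 on day 7, 20.8 ± 1.85 on day 1, and 33.9 ± 5.26 in controls (SD, n = 2 sections each). Its log2 difference of day 14 from day 7 was 2.31 (SE 0.25, edgeR adjusted p = 1.58e-08). It passed in all 6 alternatives, with differences from 2.23 to 2.41. Probe RTS0070408 had 282 ± 27.5 CPM on day 7 and 90.6 ± 9.47 on day 1, and its difference of 1.15 between days 14 and 7 did not pass (edgeR adjusted p = 0.0631). Probe RTS0073753 had 138 ± 23.3 CPM on day 7 and 190.3 ± 21.4 on day 1, beside 58 ± 8.7 on day 14. Its log2 difference of -1.21 between days 14 and 7 did not pass (edgeR adjusted p = 0.0698). Probe RTS0066546 had 145 ± 59.8 CPM on day 7 and 221 ± 21.6 on day 1, beside 100.1 ± 26.2 on day 14. Its log2 difference of -0.50 between days 14 and 7 did not pass either.

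Each day is compared with the same 2 control sections, so the days are given side by side and not tested against each other through the controls. In macrophage sums, the macrophage-leaning share was 4.06% ± 0.195 in controls, 5.1% ± 0.749 on day 1, 8.98% ± 0.308 on day 7, and 12.3% ± 1.78 on day 14 (SD, n = 2 sections each). The tubule-leaning share was 2.98% ± 1.51, 1.64% ± 0.689, 0.877% ± 0.368, and 0.547% ± 0.148. In the macrophage-leaning share no neighboring groups overlapped, with 4.2% and 3.92% in the control, 5.63% and 4.57% in the day 1, 8.76% and 9.2% in the day 7, and 11% and 13.5% in the day 14 sections. In the tubule-leaning share, controls (4.05% and 1.91%) overlapped with day 1 (1.15% and 2.12%), and day 7 (0.617% and 1.14%) overlapped with day 14 (0.442% and 0.651%). Days 1 and 7 were among the groups that gave the lists. With entospletinib, an inhibitor of the kinase SYK, the day 14 macrophage sums held 6.15% ± 1.24 macrophage-leaning and 4.2% ± 0.655 tubule-leaning counts. These entospletinib sections were also used for the lists.

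**Figure D5:**
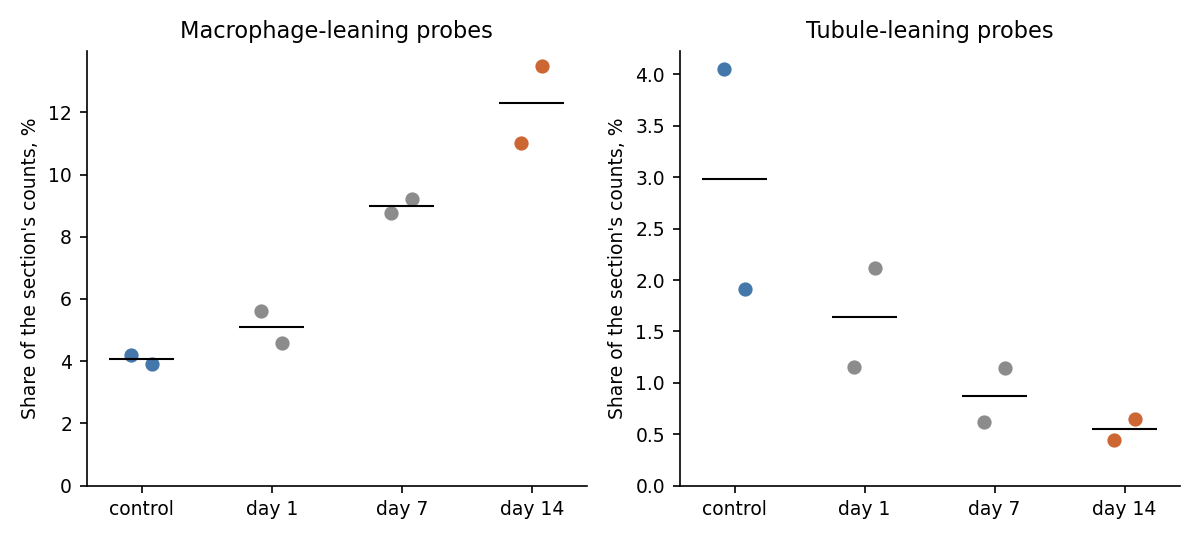
Share of the counts of each macrophage section sum in the macrophage-leaning (left) and tubule-leaning probes (right) for controls and for the vehicle group on days 1, 7, and 14. Each point is a section, each line the mean of 2 sections. The means run from 4.06% to 12.3% on the left and from 2.98% to 0.547% on the right.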

How the data were processed

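For each segment, the authors deposited raw UMI counts by probe without normalization, the output of the GeoMx NGS Pipeline (3.1.1.5 per the file headers). The labels name mm10, and the counts themselves hold no coordinates. Probes with 20 or more counts over the 14 segments were kept, which was all 20175, of which 5658 reached 20 in the 6 control segments alone. Counts were summed per section. The 14 macrophage sums of all 7 groups shared 1 estimate of the spread in edgeR 4.0.16 under R 4.3.3 (robust quasi-likelihood test, scaling by the upper quartile) with Benjamini-Hochberg adjustment over all probes. Standard errors were obtained from each log2 fold change and its F statistic. Macrophage- and tubule-leaning lists came from the 10 sections of the other groups, with the same thresholds, section as a block, and macrophage against tubule sums. Thinning used 1 random draw (seed 7). Section sums held 159453 and 298063 counts in controls and 2773456 and 2024256 on day 14. Regions of a section share an animal, so fits over regions were alternatives. DESeq2 1.42.0 over regions took them as replicates, so its p-values can be too small. The limma-voom fit (3.58.1) had the section as a block, with a consensus correlation of 0.0626. Named probes were the 2 rising and 2 falling with the smallest adjusted p among those called in the same direction over all regions, in cortex, and in medulla, with a mean of 20 or more counts. The segments, lists, and tests were chosen with earlier results of these data known. The scripts were tested on simulated data. Every pair of segments differed by more than sampling noise (chi-square test), so each was counted.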

Additional observations from a re-analysis of the deposited data

Results flagged for a closer look

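Among the values of the 6 control and the 8 day 14 macrophage segments, 3 samples stood far from the others of their group, in 20 such tests of which chance flags about 1 in 20. The cortical day 14 segment of section 2 with the fewest counts detected 19788 probes, the lowest of the 8. The medullary segment of control section 1 had a tubule-leaning share of 4.64%, the highest of the 6 controls, and the tubule segment of the same ROI had 7.33%, the highest of the 6 control tubule segments. Probe RTS0070408 was at 74.8 CPM in a cortical segment of control section 1, which is 2 counts in a segment of 26729.

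The day 14 effect differed between medulla and cortex for 6 probes, among them RTS0066546 with a log2 difference of -1.77, and between macrophage and tubule segments for 36 probes, among them RTS0066546 with -1.37. Both tests were of the difference itself, by edgeR with the section in the model.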

How the results depend on the processing

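The 4 named probes were called in the same direction in all 15 alternatives for the fit over all regions, with log2 fold changes from 4.22 to 4.95 (RTS0070408), 3.39 to 3.92 (RTS0081452), -3.75 to -2.83 (RTS0073753), and -3.37 to -2.90 (RTS0066546). They had been picked for a small adjusted p in the same counts. The median of the macrophage-leaning probes ran from 1.29 to 1.93 and that of the tubule-leaning probes from -2.58 to -1.58. The number of calls changed more. With each section left out in turn it ran from 633 to 1138 over all regions, 130 to 733 in cortex, 368 to 701 in medulla, 1 to 14 for the difference between regions, 3 to 58 for the difference between compartments, 681 to 2988 in tubules, and 9 to 32 against day 7. There, the spread of a lone section was taken from the remaining groups. Thinned to equal totals, the 4 sections gave 831 calls over all regions, 289 in cortex (1290 probes tested), and 424 in medulla (5938 tested), and fewer probes could be tested. Without the 3 shallowest control segments the cortex gave 361, an alternative chosen after seeing the data, as were those for tubules and day 7. With TMM the differences gave 10 (regions) and 69 (compartments), filterByExpr gave 2 between regions, and DESeq2 gave 8 against day 7. The cause was not tested. Limma-voom over regions called 593 higher and 1203 lower. No filter gave the same calls, since all probes passed. With DESeq2 on sums the median of all probes was -0.02 over all regions in place of -0.12, and TMM moved that of the medulla from -0.06 to 0.06.

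Whether same-numbered sections pair could not be settled, since each group had few sections. The correlation of deviations between same-numbered sections was -0.102 over all regions, -0.0461 in cortex, and -0.0808 in medulla. With the section number as a replicate block, 1441, 900, and 1034 probes were called, in the same order. Without the block, 1287, 727, and 903 were called. With the numbers crossed in the day 14 group, 1290 were called over all regions, an alternative also chosen after seeing the data. An effect of the section number was not tested. Depth limits the controls, in which 5658 of 20175 probes had 20 or more counts.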
